A study of Mus musculus with 2 samples.

Results

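The secreted Wnt antagonists are extracellular proteins that hold back Wnt signaling, and 9 of their genes were followed among the 19465 genes counted in 2 sections of healing mouse femur. The members were named by gene symbol (*Sost*, *Sostdc1*, *Sfrp1*, *Sfrp2*, *Sfrp4*, *Frzb*, *Dkk2*, *Dkk3* and *Wif1*), and all 9 symbols were found, none of them shared with another gene. Wnt ligands bind a Frizzled receptor together with the co-receptor LRP5 or LRP6, and β-catenin then accumulates and enters the nucleus, where it acts with TCF and LEF factors. Sclerostin (the product of *Sost*), its relative from *Sostdc1* and the Dickkopf protein from *Dkk2* bind the LRP co-receptors, whereas the secreted Frizzled-related proteins (*Sfrp1*, *Sfrp2*, *Sfrp4* and *Frzb*) and WIF1 bind the ligands themselves. In bone, Wnt signaling favors formation by osteoblasts, and sclerostin, made mainly by osteocytes, is a known brake on it.

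Visium spatial transcriptomics of formalin-fixed, paraffin-embedded tissue was performed on 1 Control and 1 Loaded section, so no test between groups was possible and spots were not treated as replicates. The mice were female bone cell reporter animals, which carry eGFP at *Ibsp* and mCherry at *Acp5*, both introduced by CRISPR-Cas9. All had a mid-diaphyseal femoral osteotomy, held by an external fixator, at 12 weeks of age, and were euthanized at 17 weeks, 5 weeks after surgery. From week 3, Loaded mice received cyclic mechanical loading through the fixator 3 times per week, and Control mice received sham loading. The authors' list of bone barcodes marks the bone spots at the fracture site, 131 of 1962 spots in Control (557259 UMIs) and 146 of 1436 in Loaded (409020 UMIs). A UMI (unique molecular identifier) stands for 1 captured probe molecule, and levels below are UMIs per 10000 UMIs of the same spots. Intervals are exact at the 95% level and cover counting error only, not the variation between mice. The sections shared 557 spot barcodes, which name positions on the slide rather than cells. The probes of different genes can capture with different efficiency, so levels are compared within a gene and never between genes.

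A spot holds several cells, and fewer cells of a type and less RNA per cell cannot be told apart. The labelled tissue was checked against 14 marker lists. The osteoblast list (8 genes) made up 2.02% of UMIs in Control bone spots and 0.775% in other spots, and 6.54% and 1.11% in Loaded. The osteocyte list (*Dmp1*, *Phex*, *Mepe* and *Fgf23*) had only 33 UMIs in Control bone, a share that did not differ from that of other spots beyond counting error (log2 ratio −0.01, interval −0.57 to 0.50), and 253 UMIs in Loaded bone. Its *Fgf23* was at 0 in Control bone. Muscle transcripts were present in bone spots too, at 16.2% of UMIs in Control and 8.33% in Loaded.

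The promoter sequence of 5 of the 9 members was in the RefSeq table of build GRCm38.p6. The 250 bases before the start of *Sost* (chr11:101967016-101967265, minus strand) and *Sfrp2* (chr3:83766071-83766320, plus strand) are shown. They were chosen because their log2 ratios of Loaded over Control, over all bone spots, had opposite signs (2.29 and −1.02). The ratio of *Sfrp2* rested on 1 part of the Control bone. Capitals mark every match, on either strand, to TATAAA, the TCF/LEF core CTTTG, the RUNX core TGTGGT, the GC box GGGCGG or the E box CANNTG.
*Sost*: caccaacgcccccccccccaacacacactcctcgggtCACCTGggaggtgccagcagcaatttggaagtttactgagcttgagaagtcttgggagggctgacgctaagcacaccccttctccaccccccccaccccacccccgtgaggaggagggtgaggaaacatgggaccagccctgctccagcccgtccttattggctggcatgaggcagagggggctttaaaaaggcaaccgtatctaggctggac
*Sfrp2*: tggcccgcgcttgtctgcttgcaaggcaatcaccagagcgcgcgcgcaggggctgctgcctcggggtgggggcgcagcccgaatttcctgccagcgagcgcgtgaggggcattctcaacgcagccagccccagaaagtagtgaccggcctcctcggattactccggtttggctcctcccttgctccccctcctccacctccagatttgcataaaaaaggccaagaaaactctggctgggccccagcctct

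The *Sost* window held 1 E box, 213 to 208 bases before the start, and the *Sfrp2* window held none of these letters. The TCF/LEF core was found in the windows of *Dkk2*, *Frzb* and *Wif1*, and in 48.6% of all 32851 promoters of this length. An E box was found in 66.2% of them, a GC box in 32.7%, a RUNX core in 14.0% and TATAAA in 12.4%. The absence of a match says only that these letters are not in the window.

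Over all bone spots, *Sost* was higher in Loaded than in Control, and *Sfrp4*, *Dkk3* and *Sfrp2* were lower. The ratios of *Dkk3* and *Sfrp2* depended on 1 part of the Control bone (log2 ratios −0.33 and 0.53 without it). That of *Sfrp4* was −0.83, under a 2-fold difference, without another part of the Control bone. Of the 9 members, 6 had at least 10 UMIs over both bone regions. Among these 6, only *Sost* was at least 2-fold higher in Loaded bone, where 10.6% of the 10003 genes with as many UMIs were, and 3 were at least 2-fold lower, where 9.81% of genes were. The median log2 ratio of all these genes was 0.02. *Sfrp1* did not differ beyond counting error, and *Sostdc1*, *Dkk2*, *Frzb* and *Wif1* had at most 7 UMIs in either bone region, too few to show any but a very large difference.

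**Figure D1:**
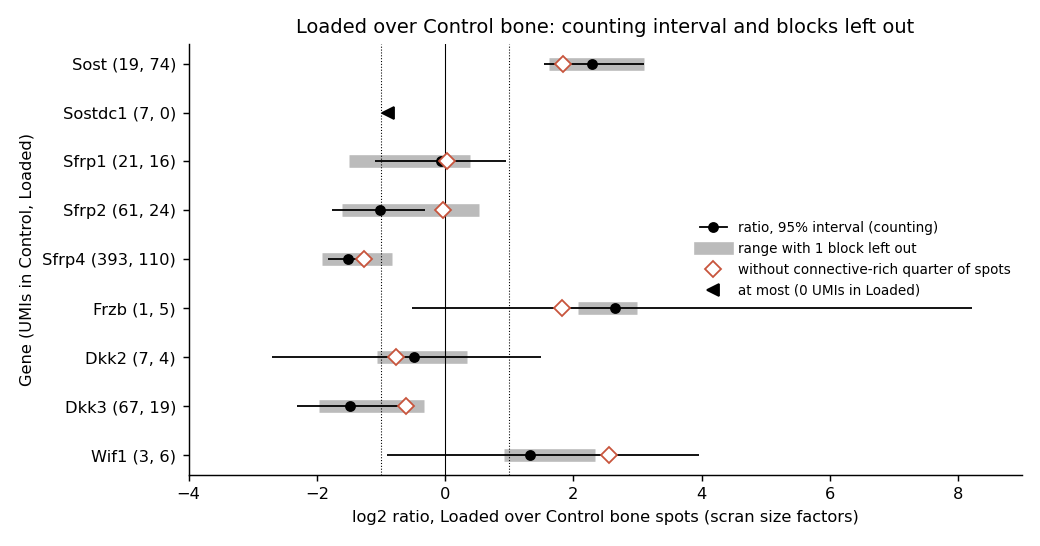
Log2 ratio of each member, Loaded over Control bone spots (x axis), with the 95% counting interval as a line, the range with 1 block of either section left out as a grey bar, and the ratio without the bone spots richest in tendon, fibroblast and Schwann genes as a diamond. A triangle marks the bound for *Sostdc1*. *Sost* lies at 2.29 and stays above 1 throughout, while the diamonds of *Sfrp2* (−0.03) and *Dkk3* (−0.62) lie nearer to 0 than their ratios over all bone spots (−1.02 and −1.49).

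*Sost* (chromosome 11, 101962458 to 101967015) encodes sclerostin. It had 19 UMIs in Control bone, spread over 16 spots with at most 2 in any spot, and 74 UMIs in Loaded bone, in 40 spots with up to 4 UMIs. Normalized with scran size factors, its level was 0.123 UMIs per unit of size factor in Control and 0.602 in Loaded. This was a 4.89-fold difference (log2 ratio 2.29, interval 1.55 to 3.10). The ratio remained between 1.62 and 3.10 with any 1 block of either section left out (the bone has 2 sides, each cut at the middle of its length into 2 segments, which gives 4 blocks), although the levels of the blocks overlapped between sections (0.0392 to 0.219 in Control and 0.0750 to 1.21 in Loaded).

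The *Sost* molecules of the Loaded bone lay almost entirely in its second segment along the shaft, with 68 of the 74 UMIs, against 6 in the first segment (log2 ratio 3.59, interval 2.39 to 5.08). From one end to the other, the 5 equal lengths of the Loaded bone held 1, 1, 24, 31 and 17 *Sost* UMIs, or levels of 0.771, 0.122, 1.20, 4.53 and 3.77. Both sides showed this, with 3 UMIs on each side in the first segment, and 28 on side 1 and 40 on side 2 in the second, although side 1 had 0 UMIs in the last length, where side 2 had 17. The section does not tell which end is proximal, and the ends cannot be matched between the sections. The Control bone had 9, 6, 1, 2 and 1 UMIs along its length, and its segments did not differ beyond counting error (log2 ratio −1.09, interval −3.14 to 0.56). Across the Loaded bone, spots at the outer and the inner edge had similar *Sost* levels, 1.58 (0.966 to 2.44) and 1.79 (1.19 to 2.58).

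Osteocyte genes moved with *Sost* between the sections. The osteocyte list was higher in Loaded bone by a log2 ratio of 3.27 (2.74 to 3.84), more than *Sost* itself. For each osteocyte-list UMI there were 0.576 *Sost* UMIs in Control bone (0.309 to 1.04) and 0.292 in Loaded bone (0.223 to 0.380), a log2 ratio of −0.98 (−1.72 to −0.17). *Dmp1*, expressed by young and mature osteocytes, had 28 and 171 UMIs, and *Mepe* had 3 and 46. Within the Loaded bone the level of the osteocyte list along the 5 lengths was 4.62, 4.75, 7.58, 5.70 and 3.77, highest in length 3. The *Sost* level was 1.20 in length 3 and higher in length 4 (4.53) and length 5 (3.77). Length 5 had the lowest level of the osteocyte list (17 UMIs, interval 2.20 to 6.04), but the intervals of lengths 1, 2 and 4 overlapped this one. Over the 5 lengths the osteoblast list went from 1077 to 263, the muscle list from 663 to 1275 and the granulocyte list from 18.5 to 67.2. Spot by spot, over the 146 Loaded bone spots of this 1 library, *Sost* had its highest r with the muscle list (0.24) and the osteocyte list (0.21), both weak. The part of these cells in the *Sost* ratio and position was not tested.

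**Figure D2:**
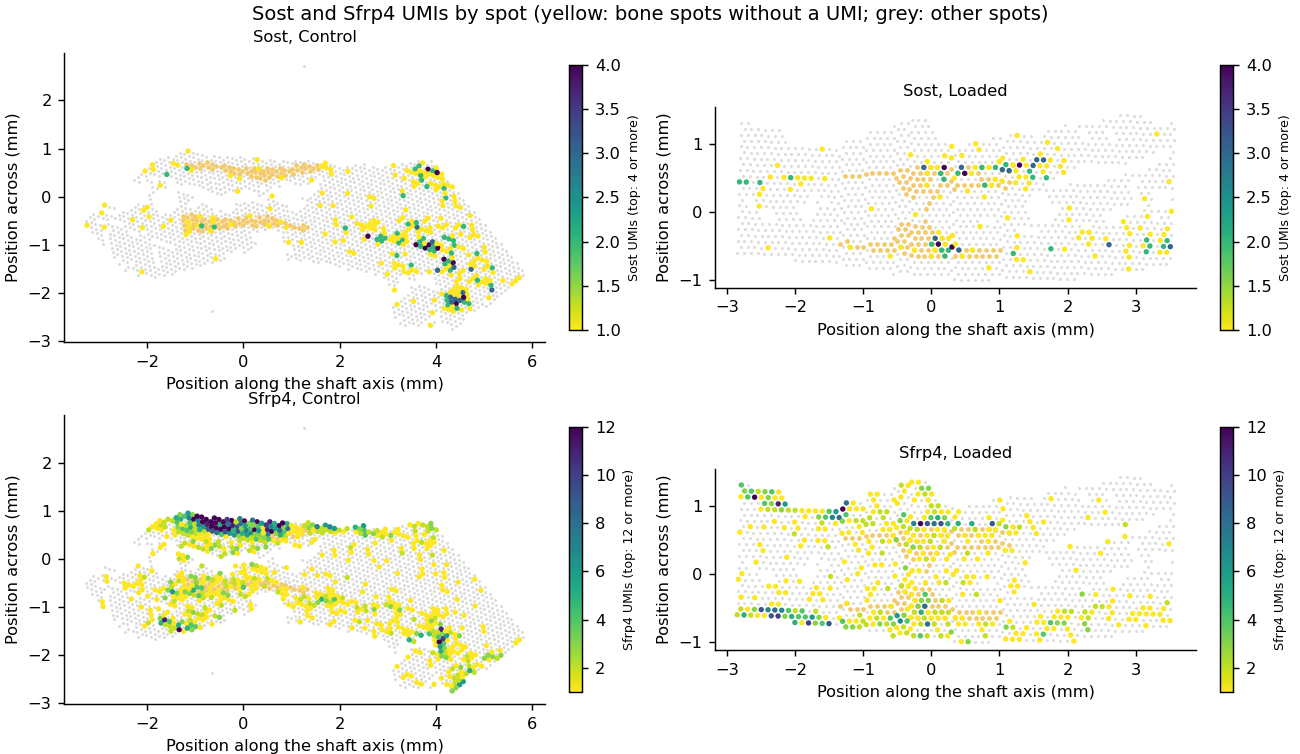
Position of each spot along (x axis) and across (y axis) the shaft in mm, for *Sost* (top) and *Sfrp4* (bottom) in Control (left) and Loaded (right), with spots holding a UMI colored by their number of UMIs, other bone spots in pale orange and other spots in grey. *Sost* in Loaded bone lies in the second segment and continues beyond that end, whereas in Control 363 of the 402 *Sost* UMIs outside the listed bone spots lie beyond the second end, and *Sfrp4* in Control is concentrated in and just outside side 2.

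Over all spots outside the listed bone spots together, the order of the sections was the opposite. *Sost* had 402 UMIs in other spots of Control (level 0.476) and 142 in Loaded (0.315). This order was seen only beyond the ends of the bone region (0.638 in Control and 0.405 in Loaded). In enclosed tissue between the sides the level was 0.231 in Control (10 UMIs) and 0.292 in Loaded (18 UMIs). Outside the outer faces it was 0.0448 in Control (9 UMIs) and 0.126 in Loaded (15 UMIs). Most of the Control molecules (363 UMIs, level 1.12) came from tissue beyond one end of the bone region, and 250 of them lay over 2000 μm past that end (level 2.28, 2.01 to 2.59), where the osteoblast list had a level of 266.04 and the cartilage list of 30.1. The Loaded section had only 74 spots as far past its own second end, with 18 *Sost* UMIs. In the 5% of other spots richest in the osteocyte list, which holds no member, the *Sost* level was 9.42 in Control (88 UMIs in 88 spots, log2 ratio to the remaining other spots 4.69, interval 4.33 to 5.04) and 2.48 in Loaded (31 UMIs in 64 spots, 3.30, interval 2.68 to 3.89). These sets are unlike, since the list made up 0.209% of UMIs in the Control spots and 0.0791% in the Loaded ones. Muscle spots, with a muscle share of at least 10%, had a *Sost* level of 0.298 in Control, close to that of Control bone spots (0.341).

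*Sostdc1* (chromosome 12, 36314139 to 36318452), which encodes the sclerostin relative that also binds BMPs, had 7 UMIs in Control bone and 0 of 409020 UMIs in Loaded bone. With 0 set to 3 UMIs its level was 1.86-fold lower in Loaded, and the exact interval of the log2 ratio reached up to −0.20. All 7 Control UMIs lay on side 2 of the bone, 5 of them in the second of the 5 lengths, and 15 more were in tissue outside the outer faces. In Control its level was 0.325 in the other spots richest in the Schwann list (9 UMIs in 5 spots) and 0.0172 in the remaining other spots, a log2 ratio of 4.24 (2.85 to 5.55). The ratio was 3.50 (1.97 to 4.86, 7 UMIs) for the fibroblast list and 3.11 (1.10 to 4.70, 4 UMIs) for the endothelium list. In Loaded the spots richest in the Schwann list held 2 UMIs, with an interval that included 0.

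*Sfrp4* (chromosome 13, 19623104 to 19632994), a Frizzled-related protein that binds Wnt ligands, had 393 UMIs in 97 of the 131 Control bone spots and 110 UMIs in 69 of the 146 Loaded ones. Its normalized level was 2.55 UMIs per unit of size factor in Control and 0.895 in Loaded (log2 ratio −1.51, interval −1.83 to −1.20). The range with 1 block left out was −1.91 to −0.83, and the value nearest to 0 came from leaving out the first segment of side 2 in Control. That block held 208 of the 393 Control UMIs at a level of 17.2 (14.9 to 19.7), against 2.47 in the same segment of side 1. The levels of the 4 Loaded blocks lay between 2.10 and 3.65, near those of Control side 1 (2.49).

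The sides of the Control bone were unequal beyond counting error for *Sostdc1* (7 UMIs against 0), *Sfrp4*, *Sfrp2* and *Dkk3*. How large a share of all genes differed between these sides was not worked out, so this is not read as a trait of the members. *Sfrp4* was higher on side 2 than on side 1 of Control by a log2 ratio of 2.20 (1.82 to 2.60), *Sfrp2* by 3.14 (1.93 to 4.65) and *Dkk3* by 2.46 (1.47 to 3.59). In Loaded bone the same ratios were −0.41 (−0.99 to 0.16), 0.85 (−0.43 to 2.23) and 1.23 (−0.26 to 2.92), each with an interval that included 0, and the difference between the sections was not tested. Along the Loaded bone, *Sfrp4* had its highest level, 3.54, in the middle length, above that of the other 4 (1.87) by a log2 ratio of 0.92 (0.34 to 1.52). With the shaft drawn along the first principal axis of the bone spots, the highest level was 3.29, in length 2. Loaded bone spots with neither an inner nor an outer edge had a level of 5.59 (4.15 to 7.37), and those at the outer edge 2.06 (1.34 to 3.01). Control side 2 also differed from side 1 in its tissue, with levels of 59.9 and 8.08 for the tendon list, 21.2 and 8.38 for the fibroblast list, 11.0 and 2.52 for the Schwann list, 316 and 82.9 for the osteoblast list, 53.8 and 22.9 for the osteoclast list, and 643 and 2625 for the muscle list. The part of these tissues in the ratios was not tested.

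**Figure D3:**
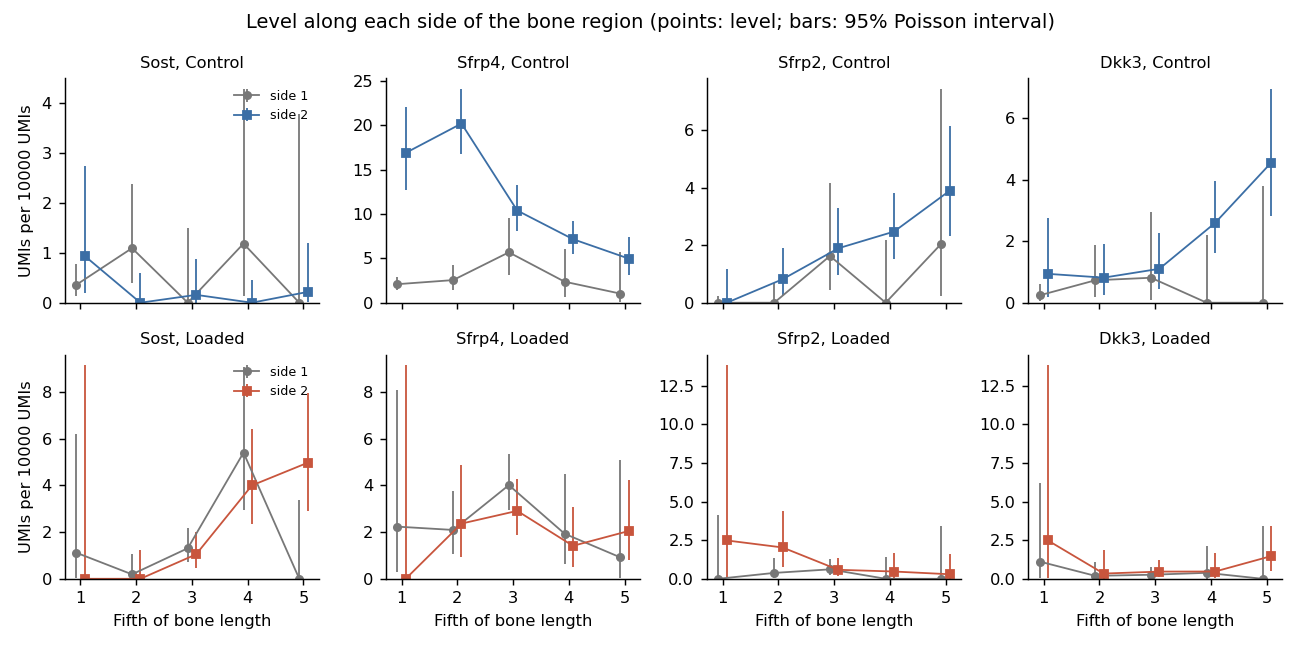
Level in UMIs per 10000 UMIs (y axis, from 0, scales differ between panels) of 4 members in each of 5 equal parts of the bone length (x axis) for the sides of Control (top) and Loaded (bottom), with 95% Poisson intervals as bars. In Control, *Sfrp4* is highest in length 2 of side 2 (20.2) and *Sfrp2* and *Dkk3* in its length 5 (3.90 and 4.54), while *Sost* in Loaded is highest in length 4 of side 1 (5.41) and length 5 of side 2 (4.97).

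*Sfrp2* (chromosome 3, 83766321 to 83774316), another Frizzled-related protein, had 61 UMIs in 34 Control bone spots and 24 UMIs in 20 Loaded ones. Its normalized level was 0.396 UMIs per unit of size factor in Control and 0.195 in Loaded (log2 ratio −1.02, interval −1.76 to −0.32). This difference rested on 1 part of the Control bone, since the second segment of side 2 held 47 of the 61 UMIs, and without that block the log2 ratio was 0.53. With library totals in place of scran factors it was −0.90, under a 2-fold difference. Along the Control bone the 5 lengths held 0, 5, 16, 20 and 20 *Sfrp2* UMIs, and the level of the second segment exceeded that of the first by a log2 ratio of 3.17 (2.17 to 4.31). Over the same lengths the osteoblast list had levels of 52.4, 119, 223, 365 and 585, the tendon list ran from 6.62 to 86.2, the osteoclast list from 21.0 to 123 and the muscle list from 2739 to 550.2. Spot by spot in the 131 Control bone spots, *Sfrp2* had an r of 0.52 with the osteoblast list, 0.44 with the tendon list and −0.48 with the muscle list, and the part of these cells in its position was not tested. Loaded bone showed no such gradient beyond counting error (−0.65, interval −2.03 to 0.64).

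*Dkk3* (chromosome 7, 112116017 to 112159057), a divergent member of the Dickkopf family, had 67 UMIs in 36 Control bone spots and 19 UMIs in 16 Loaded ones. These were 0.435 and 0.155 UMIs per unit of size factor (log2 ratio −1.49, interval −2.31 to −0.74). It shared the position of *Sfrp2* in Control, with 47 of its 67 UMIs in the second segment of side 2, and without that block its log2 ratio was −0.33. Spots at the outer edge of the Control bone had a higher *Dkk3* level than those at the inner edge, 1.75 against 0.673 (log2 ratio 1.38, interval 0.40 to 2.48). Neither *Sfrp2* (−0.29, interval −1.13 to 0.57) nor *Sfrp4* (0.12, interval −0.22 to 0.47) differed between these edges beyond counting error. When the bone spots richest in tendon, fibroblast and Schwann genes were left out (33 spots in Control and 36 in Loaded), a choice made after seeing the data, the log2 ratios of Loaded over Control became −0.62 (−1.63 to 0.35) for *Dkk3*, −0.03 (−0.96 to 0.89) for *Sfrp2*, −1.26 (−1.64 to −0.90) for *Sfrp4* and 1.84 (1.05 to 2.70) for *Sost*. In bone spots with a muscle share below 5% (16 in Control and 25 in Loaded) they were instead −3.01 (−4.72 to −1.64) for *Dkk3*, −2.46 (−4.02 to −1.15) for *Sfrp2*, −1.32 (−1.93 to −0.74) for *Sfrp4* and 2.30 (−0.74 to 7.82, from 1 and 6 UMIs) for *Sost*. The tendon list was lower in Loaded than in Control bone by 1.20 on the log2 scale (665 against 1922 UMIs), and the Schwann list by 1.64.

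*Sfrp1* (chromosome 8, 23411502 to 23449632), whose protein binds Wnt ligands, had 21 UMIs in Control bone and 16 in Loaded bone, and its log2 ratio was −0.06 with an interval of −1.10 to 0.94. In Loaded bone 12 of the 16 UMIs lay in the first segment of side 1 and 1 in the entire second segment, opposite to *Sost* (second over first segment, log2 ratio −3.82, interval −9.22 to −1.12). Without the first segment of side 1 in Loaded, the log2 ratio of Loaded over Control was −1.5.

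The remaining members were sparse. *Frzb* (chromosome 2, 80411970 to 80447625), a Frizzled-related protein known from cartilage, had 1 UMI in Control and 5 in Loaded bone. *Dkk2* (chromosome 3, 132085292 to 132180304) had 7 and 4, and *Wif1* (chromosome 10, 121033960 to 121100650), whose protein binds Wnt ligands, had 3 and 6. Their log2 ratios of 2.65 (−0.51 to 8.21), −0.48 (−2.70 to 1.5) and 1.33 (−0.90 to 3.96) had intervals that included 0.

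Bone spots were next compared with all other spots of the same section. In Control, 6 of the 9 members were at least 2-fold higher in bone spots (*Sostdc1*, *Sfrp1*, *Sfrp2*, *Sfrp4*, *Dkk2* and *Dkk3*). Of the 14725 genes with at least 10 UMIs, 23.3% were. *Frzb* was at least 2-fold lower, where 2.77% of genes were. The intervals of *Dkk2* (log2 ratio 1.03, −0.36 to 2.17, 7 bone UMIs) and *Frzb* (−1.78, −7.11 to 0.76, 1 bone UMI) included 0. In Loaded, 2 of the 8 members with enough UMIs were at least 2-fold higher (*Sost* and *Wif1*), where 13.1% of 13850 genes were, and 0 were at least 2-fold lower, where 4.99% of genes were. No test was run on these counts, so the 0 stands for folds alone. *Sfrp4* was at 7.05 in Control bone and 1.64 in other Control spots (log2 ratio 2.11, interval 1.94 to 2.27), and at 2.69 and 1.75 in Loaded (0.62, interval 0.32 to 0.91). *Sost* was at 0.341 and 0.476 in Control (−0.48, interval −1.23 to 0.18) and at 1.81 and 0.315 in Loaded (2.52, interval 2.09 to 2.94). The Control count depended on which other spots were used. Against only those with a muscle share below 10%, 0 members were at least 2-fold higher in Control bone, and *Sfrp4* was at 0.47. At least 2-fold lower were *Sost* (log2 ratio −1.93, 19 bone UMIs), *Frzb* (−2.47, 1 bone UMI) and *Wif1* (−2.41, 3 bone UMIs). The share of all genes was not worked out against this set of other spots.

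**Figure D4:**
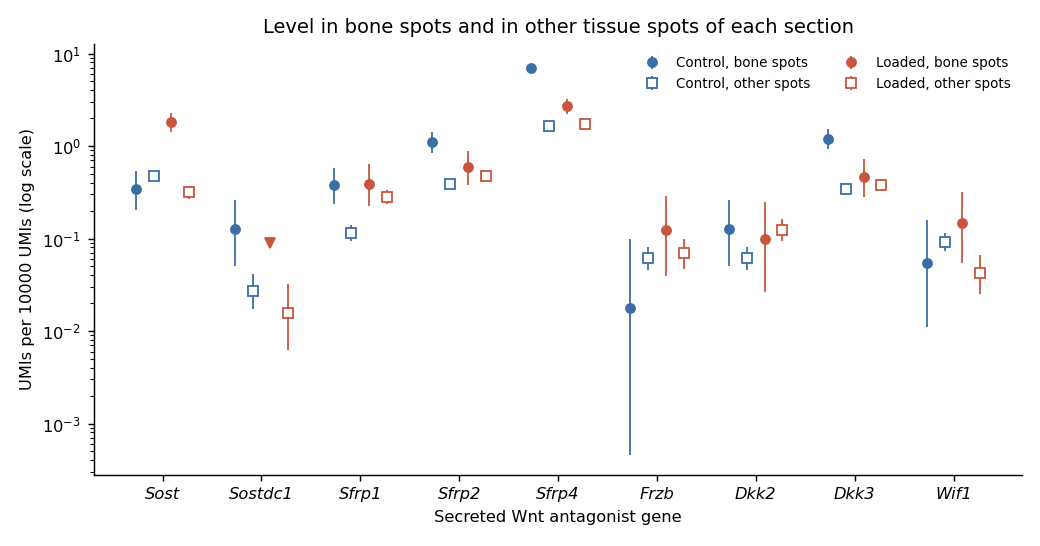
Level of each member in UMIs per 10000 UMIs (log scale, y axis) in bone spots (filled circles) and other spots (open squares) of Control (blue) and Loaded (red), with 95% Poisson intervals as lines, and the upper limit of *Sostdc1* at 0 UMIs in Loaded bone as a triangle. In Control the bone interval lies above that of other spots for *Sostdc1*, *Sfrp1*, *Sfrp2*, *Sfrp4* and *Dkk3*, and in Loaded it does so for *Sost* and *Sfrp4*.

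The tissue just outside the bone also held several members. Within 150 μm of the outer face, the *Sfrp4* level was 6.51 (5.73 to 7.38) in Control, which did not differ from that of Control bone beyond counting error (log2 ratio −0.11, interval −0.35 to 0.12). In Loaded it was 4.67 (3.92 to 5.53) and above that of Loaded bone (0.80, interval 0.42 to 1.17). *Sfrp1* (1.41, interval 0.49 to 2.38), *Sfrp2* (1.05, interval 0.26 to 1.86) and *Dkk3* (1.01, interval 0.11 to 1.94) were also higher in this rim than in the bone of Loaded. *Sost* was lower there by 3.39 on the log2 scale in Loaded and by 1.70 in Control. Farther out, at 350 to 700 μm, the Control levels were 0.495 for *Sfrp4*, 0.198 for *Sfrp2* and 0.0371 for *Dkk3*. In the enclosed tissue within 150 μm of the bone, *Sfrp4* was at 4.37 in Control and 1.24 in Loaded, below bone in both sections, and *Sost* at 0.331 and 0.594.

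Other spots rich in 1 marker list showed beside which markers each member was high, with the reservation that a spot can be rich in several lists. In Control, *Sfrp4* was highest in fibroblast-rich spots (385 UMIs, level 12.2, against 1.23 in the remaining other spots). Schwann-rich (8.60), endothelium-rich (7.74) and tendon-rich spots (7.70) came next. Fibroblast-rich spots of Loaded had a level of 4.96, against 1.52, and tendon-rich (4.94) and osteoclast-rich spots (4.70) were close to it. Schwann-rich spots of Loaded were at 2.30, a log2 ratio to the remaining other spots of 0.41 (−0.10 to 0.88). *Sfrp2* in Control was highest in tendon-rich spots (3.32) and osteoblast-rich spots (2.98), and in Loaded in osteoblast-rich (1.97) and osteoclast-rich spots (1.88). *Dkk3* reached 2.67 in both osteoblast-rich and tendon-rich spots of Control. *Sfrp1* was at 1.11 in fibroblast-rich spots of Loaded, against 0.226, and *Dkk2* at 0.436, against 0.102. *Wif1* (17 UMIs, 2.19 against 0.0719) and *Frzb* (7 UMIs, 0.90 against 0.0527) had their highest Control levels in cartilage-rich spots. The muscle-richest spots were at or below 0.241 for every member in Control and at or below 0.340 in Loaded.

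**Figure D5:**
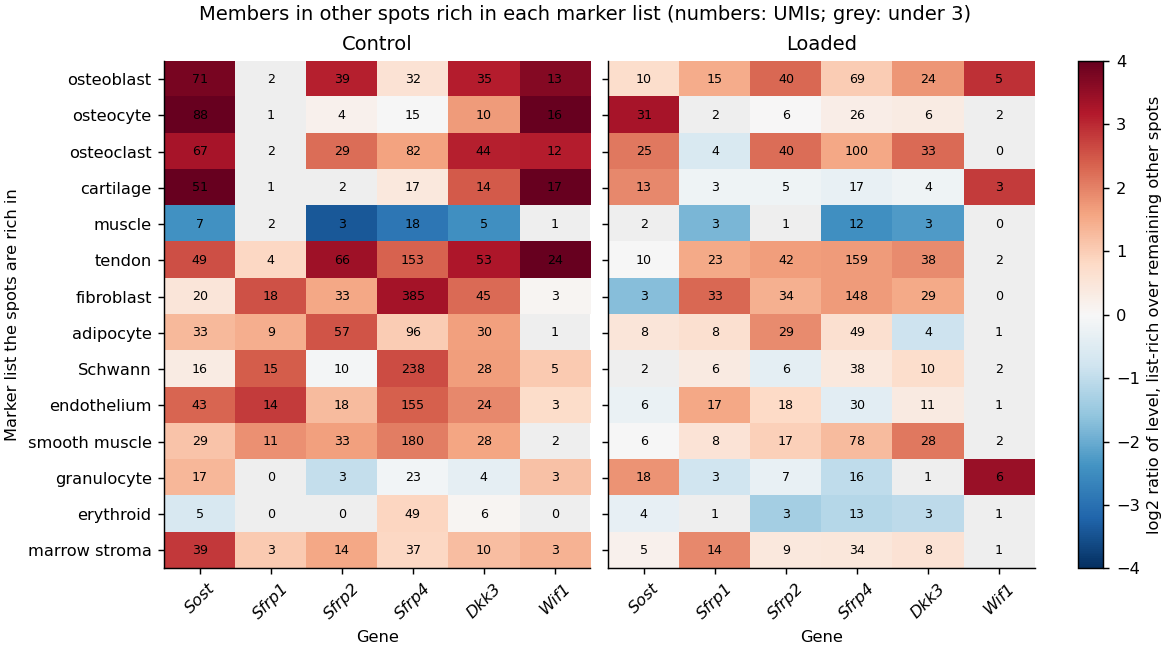
Log2 ratio of the level of 6 members (columns) in the other spots richest in each marker list (rows) over that in the remaining other spots, as color, with the UMIs in the list-rich spots as numbers, for Control (left, 88 spots a list) and Loaded (right, 64 spots a list). Cells with under 3 UMIs are grey. In Control, *Sost* and *Wif1* have their highest ratios with the osteocyte and cartilage lists and *Sfrp4* with the fibroblast and Schwann lists, and each colored cell of the muscle row is negative in both sections.

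Depth limits the share of spots in which a member is seen. Each spot was thinned to 1000 UMIs, and shallower spots were left out, so that 131 of 146 Loaded bone spots and all 131 of Control remained. After thinning, *Sost* was detected in 6.11% of Control bone spots (2.67 to 11.7) and 4.97% of Control muscle spots, a share within that interval. Muscle spots are a mixed reference, with a Control *Sost* level of 0.298 against 0.0938 (7 UMIs) in the muscle-richest other spots. In Loaded it was detected in 19.8% of bone spots (13.4 to 27.7) and 4.94% of muscle spots. *Sfrp4* was detected in 43.5% of Control bone spots (34.9 to 52.4) against 14.5% of muscle spots, and in 27.5% against 14.2% in Loaded. *Sostdc1* was seen in 0 of 131 Loaded bone spots, which allows a share of up to 2.29% when 3 counts are taken as the limit of a count of 0. Median depths before thinning were 3478 UMIs in Control and 2769 in Loaded bone spots, and 5765 and 3580.5 in muscle spots. Unthinned, the shares for *Sost* were 12.2% and 27.4% of Control and Loaded bone spots, and for *Sfrp4* 74.0% and 47.3%.

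Within the bone, the members seldom followed each other from spot to spot. At least 1 member was seen in 113 of 131 Control and 105 of 146 Loaded bone spots, and at least 3 members in 31 and 15. Over the 131 Control bone spots, Pearson's r of log2(UMIs per 10000 + 1) was 0.17 for *Sfrp2* with *Dkk3*, 0.13 for *Sfrp2* with *Sfrp4* and 0.05 for *Dkk3* with *Sfrp4*. Over the 146 Loaded bone spots it was −0.01 for *Sost* with *Sfrp4*. These spots share 1 library per section and differ in depth, and counts this sparse lower any correlation.

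The genes whose spot pattern was most like that of a member were listed next. In Control bone, *Sfrp4* was most like *Cxcl14* (r = 0.60), *Igfbp6* (0.57), *Pi16* (0.51), *Igfbp4* (0.49) and *Mbp* (0.48), the last a myelin gene. By Spearman's rho only *Cxcl14* and *Igfbp6* stayed among its 5 most similar genes, and the other 3 were the muscle genes *Myh2* (0.58), *Myh7* (0.58) and *Tnnt1* (0.55). With the whole muscle list, which holds these 3 genes, *Sfrp4* instead had a rho of −0.49 and a Pearson's r of −0.43. *Sfrp2* was most like the type I collagen genes *Col1a1* (0.53) and *Col1a2* (0.49), with *Col8a2* (0.51), *Cilp2* (0.44) and *Mgp* (0.43). *Dkk3* was most like *Pdlim2* (0.47), *Chpf* (0.45), *Fgfr1* (0.44), *Sdc1* (0.43) and *Col16a1* (0.42). In Loaded bone the highest values were lower, 0.36 for *Sfrp4* with *Acot7*, followed by *Mrc2*, *Tuba1a*, *Angptl2* and *Arpc1b*, and 0.32 for *Sost* with *Mbd2*, followed by *Fgl2*, *Zfp106*, *Ckm* and *Tnn*. These are the highest of 3566 genes in Control and 2869 in Loaded, and they are given as a description. By Spearman's rho, 3 of the 5 genes stayed for *Sfrp2* and for *Dkk3* in Control, 4 for *Sfrp4* and 5 for *Sost* in Loaded.

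The rest of the Wnt pathway was read in the same bone spots from a list of 69 genes, of which 66 were measured and 39 had at least 10 UMIs. Of these 39 genes, 7 were at least 2-fold higher and 8 at least 2-fold lower in Loaded bone, against 10.6% and 9.81% of all 10003 genes, and their median log2 ratio was 0.01. The interval left out 0 for 4 of the 7 and 6 of the 8. Among ligands, 4 of 8 were at least 2-fold higher, 3 of them with an interval that left out 0, and 1 was lower. The minimum of 10 UMIs was set on the sum of both bone regions. *Wnt4* (5 and 11 UMIs), *Wnt7b* and *Wnt10b* had fewer than 10 in Control, and *Wnt9a* had fewer than 10 in Loaded. The ligand counts therefore depend partly on that minimum. *Wnt5b* had 13 UMIs in Control and 47 in Loaded bone (log2 ratio 2.18, interval 1.27 to 3.19), *Wnt7b* 1 and 11 (3.79, interval 1.00 to 9.21) and *Wnt10b* 3 and 10 (2.06, interval 0.11 to 4.56), whereas *Wnt9a* had 18 and 2 (−2.84, interval −5.99 to −0.78). *Wnt16* had 26 and 18 UMIs, a log2 ratio of −0.20 with an interval that included 0.

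Of the receptors, 0 of 12 were at least 2-fold higher and 5 at least 2-fold lower (10.6% and 9.81% of all genes), 4 of these with an interval that left out 0. These intervals cover counting error only. The pathway ratios were not repeated with 1 block, or the spots richest in tendon, fibroblast and Schwann genes, left out. Such steps brought *Dkk3* nearer to 0 and *Sfrp2* to 0.53 without 1 Control block. *Fzd1* had 94 and 28 UMIs (−1.42, interval −2.08 to −0.80), *Fzd2* 96 and 23 (−1.73, interval −2.46 to −1.07), *Fzd4* 52 and 11 (−1.91, interval −3.00 to −0.96) and *Fzd7* 20 and 4 (−1.99, interval −4.0 to −0.42). The co-receptor gene *Lrp6* had 89 and 40 (−0.83, interval −1.40 to −0.27). The antagonist *Sfrp5*, which is not a member, had 40 and 3 UMIs (−3.41, interval −5.75 to −1.76). *Apcdd1*, which encodes a membrane-bound inhibitor, had 2 and 11 (2.79, interval 0.59 to 6.0). Like the ligands above, *Fzd7*, *Ror2* (11 and 4 UMIs), *Sfrp5* and *Apcdd1* met the minimum of 10 UMIs only through the section where they were high. Intracellular transducers and targets named here had intervals that included 0. *Dvl1* had 82 and 47 UMIs (−0.48, interval −1.02 to 0.06), *Dvl3* 65 and 42 (−0.30, interval −0.90 to 0.28), *Ccnd1* 35 and 28 (0.01, interval −0.77 to 0.76) and *Axin2*, a feedback target of β-catenin, 34 and 15 (−0.85, interval −1.84 to 0.06). For receptor turnover, *Lgr4* had 19 and 11 UMIs and *Rspo3* 10 and 8, with intervals that included 0.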

How the data were processed

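Probe libraries of FFPE sections were read out by the authors with SpaceRanger 2.0.0. The deposited values are raw UMI counts for each gene in each spot, and the processing notes name the mm10 build. Bone barcodes came from the authors' list. Members and gene lists were chosen with earlier results of these data known. Sums over bone spots were divided by summed scran size factors (scran 1.30.0, R 4.3.3), as the study normalized them, for Loaded over Control, and by UMI totals (per 10000) elsewhere. The DESeq2 test of the study was not repeated, because 1 section per group leaves no replicate. Intervals are exact Poisson, binomial or conditional binomial (scipy 1.17.1). A count of 0 was set to 3 UMIs for a bound, called only in the direction of that bound. Genes needed 10 UMIs over the spots compared.

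The shaft axis was to be the first principal axis of the bone spots, which ran oblique to the bone in Loaded. Each side was therefore centered on its own mean first, a choice made from positions alone, and the first axis is an alternative. Sides 1 and 2 are numbered within a section, as are the 5 lengths, the 2 segments and the 4 blocks (side by segment). Other spots were placed by distance to the nearest bone spot (spot spacing 100 μm), and list-rich spots are the top 5% of those with at least 500 UMIs. Named pathway genes are the 2 with most UMIs in each role and those at least 2-fold apart with an interval that leaves out 0. Similar genes are the 5 with the highest r among genes with at least 30 UMIs. The ratio and its interval were run on simulated Poisson sums, which carry counting error alone and no variation between spots, blocks or mice. Gene positions are from GENCODE M21 (GRCm38). Figures used matplotlib 3.10.9, and TMM factors edgeR 4.0.16.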

Additional observations from a re-analysis of the deposited data

Results flagged for a closer look

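For 4 members the direction of the bone over other spots ratio was opposite in the 2 sections. With 1 section per group the difference between the sections was not tested. The share of all genes with opposite directions was not worked out, so these 4 are not read as a trait of the members. Of all genes with at least 10 UMIs, 70.7% had a ratio above 0 in Control and 62.4% in Loaded. *Sost* had a log2 ratio of −0.48 in Control and 2.52 in Loaded. *Frzb* had −1.78 in Control, from 1 bone UMI, and 0.83 in Loaded, from 5. *Dkk2* had 1.03 in Control and −0.35 in Loaded. *Wif1* had −0.78 in Control, from 3 bone UMIs, and 1.80 in Loaded, from 6. Only the Loaded values of *Sost* (interval 2.09 to 2.94) and *Wif1* (0.18 to 3.18) had intervals that left out 0. Beyond the ends of the bone region *Sost* had 383 UMIs in Control (level 0.638) and 109 in Loaded (0.405). The part of that tissue in the ratios was not tested.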

How the results depend on the processing

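With 1 section per group, nothing here measures the variation between mice, and counts under 10 show only very large differences. *Sost* stayed at least 2-fold higher in Loaded bone under library totals, TMM, totals without the 20 most abundant or the muscle genes, equal weight per spot and every block left out. In bone spots with a muscle share below 5% its ratio was 2.30 (−0.74 to 7.82) on 7 UMIs, under the minimum of 10, so 0 members counted as higher, and a minimum of 1 UMI made it 3. Without connective-rich spots (added after seeing the data) 1 member was lower. Leaving out 1 block gave 1 member higher and 2 to 3 lower, but not always the same members. Without the second segment of Control side 2, *Dkk3* (−0.33) and *Sfrp2* were no longer among the lower ones, and *Dkk2* (−1.06) was. Without the first segment of Control side 2, *Sfrp4* (−0.83) was no longer among them. *Sfrp1* (−1.50) was among them without the first segment of Loaded side 1. The *Sfrp2* ratio ran from −1.60 to 0.53 over the blocks left out, changing sign without the second segment of Control side 2. Against other spots in Control, 2 members were lower in bone with totals without the 20 most abundant or the muscle genes or with scran factors, 3 with equal weights, and 0 were higher and 3 lower when muscle spots were dropped. There *Sfrp2* changed sign to −0.012. With 1 block left out it ran from −0.12 to 2.25 and *Sostdc1* from −0.25 to 2.99. With blocks left out, 1 to 2 members were lower. In Loaded, 1 member was higher without muscle spots or with a minimum of 50 UMIs. For these settings the share of all genes was not worked out, and the cause of the changes was not tested. With the first principal axis, the highest *Sfrp4* level in Control was 14.3. Under another cutoff, 12 levels in list-rich spots fell outside the main interval and 20 stayed within it. For levels in muscle spots these numbers were 18 and 18. Shares of bone spots with a UMI fell outside it in 20 cases and stayed in 16 at another depth or without thinning. No paired analysis was possible because each group has 1 section.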
